A study of Mus musculus with 8 samples.

Results

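The genes for the proteins of the cytosolic ribosome were followed across 4 groups of mouse myeloid cells. Members were chosen by name: symbols made of Rpl or Rps, a number and at most 1 closing letter (a, x, y or l), plus Rplp0, Rplp1, Rplp2 and Rpsa, without the S6 kinases and predicted pseudogenes. Only probe sets annotated to a single gene were used, and each gene was read from its probe set with the highest mean. The rule found 46 of 18194 genes, of which 24 encode large-subunit and 22 small-subunit proteins or their paralogs. Of these, 40 reached log2 5 on at least 2 arrays and were tested, 20 for each subunit. Rpl12, Rpl14, Rpl39l, Rpl3l, Rps16 and Rps27 did not reach it and were not tested. A further 28 symbols of the same form, Rpl5 and Rplp1 among them, lay only on probe sets annotated to several genes and are not members.

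The series measured CD11b+Gr-1+ immature myeloid cells of C57BL/6J mice with and without histidine decarboxylase (Hdc), the enzyme that makes histamine. All mice carried HDC-EGFP, a transgene in which EGFP reports Hdc expression. Marrow cells expressing Hdc came from HDC-EGFP mice (called wild-type in the sample titles) and HDC-EGFP/HDC-KO mice aged 3 to 4 months, 3 mice per genotype, with no treatment stated. Tumor cells came from mice aged 7 months, 5 per genotype, whose colon tumors were induced with 1 dose of azoxymethane and 10 days of dextran sodium sulfate and collected 22 to 24 weeks later. The cells of 10 to 12 tumors per genotype were pooled, with no sort on EGFP stated. The series text calls the tumor donors WT and HDC-KO, whereas the sample labels give the same HDC-EGFP and HDC-EGFP/HDC-KO genotypes as in marrow. Tissue, age, treatment and the Hdc gate therefore changed together between marrow and tumor and cannot be told apart. Each of the 4 groups was hybridised on 2 arrays that the labels describe as technical replicates, so n = 2 arrays of 1 RNA sample throughout, and each p-value compares RNA samples rather than mice.

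A ribosome is built from ribosomal RNA and a fixed set of ribosomal proteins, so the cell has to make these proteins in matched amounts. Their messages begin with a run of pyrimidines, the 5′ terminal oligopyrimidine (TOP) motif, through which the mTOR pathway and Larp1 control their translation together. Granulocyte precursors that still divide have a high demand for ribosomes, and this demand drops as neutrophils mature. In whole-population arrays such as these, fewer cells of a type and less RNA per cell cannot be told apart.

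The start-site sequences are shown because the shared TOP motif is the best-known common feature of these genes. RefSeq promoters (GRCm38.p6) were listed for 40 of the 46 members, with 48 starts. Each line gives the 30 bases that straddle an annotated start, 15 on each side, read 5′ to 3′ on the transcript strand, with the longest run of C and T in capitals where it reaches 7 bases. The genes shown are a part of those named in the results below, and all listed starts of each are given. Other named genes are not shown, among them Rpl8, Rps14, Rpl11, Rplp2, Rpl22, Rpl39, Rps4x and Rps27l.
Rpl19, start 1 (chr11:98026695-98026724, plus strand): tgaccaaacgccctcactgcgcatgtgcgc
Rpl19, start 2 (chr11:98026909-98026938, plus strand): tgggCTCTCCCCTTCgcagataatgggcgg
Rpl10a, start 1 (chr17:28328456-28328485, plus strand): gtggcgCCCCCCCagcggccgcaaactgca
Rpl10a, start 2 (chr17:28328550-28328579, plus strand): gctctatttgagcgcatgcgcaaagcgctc
Rps19, start 1 (chr7:24884577-24884606, plus strand): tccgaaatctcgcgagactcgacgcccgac
Rps19, start 2 (chr7:24884661-24884690, plus strand): ccgcacggtgagtgagggctctgggtcgcg
Rps19, last start (chr7:24884898-24884927, plus strand): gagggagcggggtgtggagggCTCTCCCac
Rpsa (chr9:120127751-120127780, plus strand): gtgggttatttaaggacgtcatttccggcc
Rps18 (chr17:33955651-33955680, minus strand): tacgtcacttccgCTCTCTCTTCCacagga
Rps25 (chr9:44407699-44407728, plus strand): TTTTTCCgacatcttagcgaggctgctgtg
Rps6 (chr4:86857353-86857382, minus strand): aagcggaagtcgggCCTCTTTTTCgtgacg
Rps9 (chr7:3704026-3704055, plus strand): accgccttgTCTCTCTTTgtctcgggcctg
Rpl13a (chr7:45128731-45128760, minus strand): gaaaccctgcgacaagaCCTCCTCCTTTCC
Rpl41 (chr10:128549154-128549183, minus strand): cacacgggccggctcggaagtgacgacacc
Rplp0 (chr5:115559452-115559481, plus strand): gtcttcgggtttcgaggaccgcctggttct

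A run of at least 7 pyrimidines lay in 23 of the 48 member windows (47.9%), beside 18.6% of 32851 windows at all listed starts. On the opposite strand the shares were 4.17% and 20.3%. Over 300 bases, from 250 before to 50 after the start, the core CCGGAAG of ETS factor sites was found on either strand at 41.7% of member starts and 8.86% of all starts. The core AAGATGG of YY1 sites was found at 14.6% and 6.34%. The motifs were searched separately, so matches may overlap. A match here is a description of the sequence, and binding was not measured. A pyrimidine run could lie anywhere in the window, so it need not be a TOP motif at the first base of the message.

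Hdc itself was read first. In marrow it was 13.18 ± 0.05 (SD, log2, n = 2) in wild-type and 9.83 ± 0.06 in HDC-KO cells, 10.2-fold lower. In tumors it was 13.24 ± 0.01 in wild-type cells and 13.03 ± 0.01 in the pool labelled HDC-KO, lower by 0.21 on the log2 scale (limma adjusted p = 0.0125). That label was thus not borne out at the size seen in marrow, and the pool is called labelled HDC-KO below. Itgam, which encodes CD11b, lay between 11.25 and 12.38 in the 4 groups. All 7 mature neutrophil markers on the arrays were at or above log2 5 in every group. Technical arrays correlated at 0.995 to 0.998, and 30.3% to 31.8% of probe sets reached log2 5.

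The ribosomal protein genes were set lowest in HDC-KO marrow and highest in the labelled HDC-KO tumor pool. Each tested member was expressed as its log2 value minus its own mean over the 8 arrays, and the median over the 40 members was taken per array. This median was -0.051 and -0.067 on the wild-type marrow arrays and -0.17 and -0.19 on the HDC-KO marrow arrays. It was -0.040 and -0.013 on the wild-type tumor arrays and 0.23 and 0.27 on the labelled HDC-KO tumor arrays. The arrays of the different groups did not overlap, and the same median over all 8174 genes tested stayed between -0.0072 and 0.025. The labelled HDC-KO tumor pool gave the highest group mean for 36 of the 40 members, HDC-KO marrow gave the lowest for 32, and 30 members showed both. These ranks were not counted over all genes, so how far they are particular to the members was not tested.

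**Figure D1:**
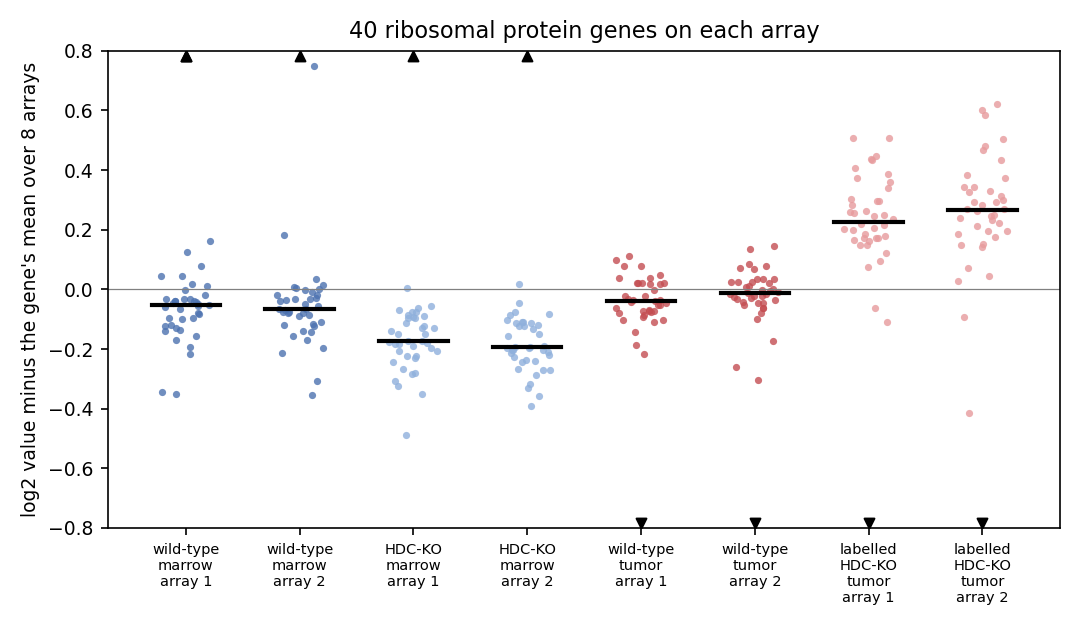
Each point is 1 of the 40 tested ribosomal protein genes, plotted as its log2 value minus its own mean over the 8 arrays (vertical axis) on each array (horizontal axis). Black bars are medians, which run from -0.19 on an HDC-KO marrow array to 0.27 on a labelled HDC-KO tumor array; triangles mark points beyond the axis, which are Rps4l on every array and Rps6 on 1 wild-type marrow array.

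In bone marrow, which asks what loss of Hdc does in Hdc-expressing myeloid precursors, most ribosomal protein genes were slightly lower in HDC-KO cells. The median difference was -0.13 on the log2 scale, a 1.10-fold change, beside -0.0014 over all genes tested, and 34 of 40 differences were negative. At an adjusted p under 0.05 (limma, Benjamini-Hochberg over all 8174 genes), 5 members fell, where 10.9% of all genes fell, and 1 rose, where 10.3% rose. The called shares of members, 12.5% and 2.5%, were thus near or below those of all genes. With the added condition of a 2-fold difference, Rps6 was the only member called lower (2.02% of all genes) and none was called higher (1.8%). At an unadjusted p under 0.05, 19 members were lower and 2 higher, beside 18.6% and 16.5% of all genes. Leaving out any 1 of the 4 marrow arrays left Rps6 as the 1 member that fell and none that rose, and other settings gave 2 to 21 that fell. The shares of all genes called under those settings are not given, so these changes are not read as results about the members. The arrays of the genotypes did not overlap for 31 members that were lower, against 34.3% of all genes, and for 5 that were higher, against 34.0%.

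Rps6, the small-subunit protein phosphorylated by the S6 kinases, stood apart. It measured 6.91 and 6.66 in wild-type marrow, 5.42 and 5.69 in HDC-KO marrow, 5.69 and 5.60 in wild-type tumors and 5.80 and 5.49 in the labelled HDC-KO tumor pool. Wild-type marrow was the high group, and the other 3 groups overlapped. The marrow difference was -1.23 ± 0.15 (SE, limma adjusted p = 0.00265), 2.35-fold lower in HDC-KO cells. These values lie just over the log2 5 filter, and the gene's other probe set was under log2 5 on all arrays.

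The other 4 members that fell in HDC-KO marrow did so by 1.15-fold to 1.21-fold. Rps14, which binds the platform of the small subunit, measured 13.50 and 13.52 in wild-type and 13.25 and 13.24 in HDC-KO marrow, a difference of -0.27 ± 0.06 (adjusted p = 0.033). Rpl13a, known also for translational silencing after interferon, measured 14.08 and 14.03 against 13.80 and 13.80 (-0.25 ± 0.05, adjusted p = 0.0171). Rps19, the gene most often mutated in Diamond-Blackfan anemia, measured 12.90 and 12.91 against 12.64 and 12.68 (-0.25 ± 0.05, adjusted p = 0.0146). In each of the 3, both HDC-KO arrays lay under both wild-type arrays. Rpsa, the small-subunit protein also known as the laminin receptor, measured 12.42 and 12.41 against 12.24 and 12.19 (-0.20 ± 0.05, adjusted p = 0.0334).

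Rps25, a small-subunit protein used by viral internal ribosome entry sites, was the exception that rose. Its values were 7.87 and 7.91 in wild-type and 8.12 and 8.13 in HDC-KO marrow (0.24 ± 0.05, adjusted p = 0.0227). All 20 large-subunit members had negative differences in marrow, with a median of -0.15, yet Rpl13a alone passed the test among them. Small-subunit members had a median of -0.09 and 14 negative differences. Other large-subunit members with differences of this size missed the threshold, such as Rpl27 (-0.20, adjusted p = 0.0965), Rpl6 (-0.19, adjusted p = 0.057) and Rpl38 (-0.19, adjusted p = 0.0607).

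In colon tumors, where the question was how the genotypes differ in tumor-infiltrating cells, the ribosomal protein genes were higher in the labelled HDC-KO pool. The median difference was 0.26, or 1.20-fold, beside 0.030 over all genes tested. At an adjusted p under 0.05, 33 of 40 members rose (82.5%), where 38.4% of all genes rose, and none fell, where 34.4% fell. The differences were small: none reached the 2-fold rule of limma, which 15.5% of all genes passed upward and 10.5% downward, while 33 members were higher and none lower at an unadjusted p under 0.05, beside 39.4% and 35.4% of all genes. Arrays did not overlap for 35 members that were higher and 1 that was lower, against 45.7% and 41.2% of all genes. Apart from Rps4l, which was under log2 5 in both pools, differences ran from -0.04 to 0.63 on the probe sets used. Others differed in size. Dimmer probe sets of Rpl22 and Rpl41 rose by 1.36 and 1.11 (limma adjusted p = 7.58e-05 and 7.78e-05 in the fit over probe sets). The _x_at probe set of Rps9 had -0.40 (adjusted p = 0.096).

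Rpl8, a large-subunit protein near the peptidyl transferase centre, had the largest difference. It measured 12.06 and 12.07 in wild-type tumors and 12.68 and 12.71 in the labelled HDC-KO pool, 0.63 ± 0.05 higher or 1.55-fold (adjusted p = 4.75e-05). Its marrow values were 12.15 and 12.17 in wild-type and 12.07 and 12.05 in HDC-KO cells, so the labelled HDC-KO tumor pool alone stood out. Rpl19, which forms a bridge between the subunits, measured 12.69 and 12.77 against 13.27 and 13.35 in tumors (0.58 ± 0.06, adjusted p = 1.65e-04). Its marrow arrays lay below these, at 12.57 and 12.59 in wild-type and 12.45 and 12.40 in HDC-KO cells.

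Rpl10a, part of the L1 stalk from which spent transfer RNA leaves, measured 12.96 and 13.05 in wild-type tumors and 13.45 and 13.52 in the labelled HDC-KO pool (0.48 ± 0.05, adjusted p = 3.23e-04). Rpl41, the smallest ribosomal protein, measured 12.97 and 13.03 against 13.39 and 13.57 (0.48 ± 0.07, adjusted p = 0.00103). Rps25 measured 8.18 and 8.19 against 8.62 and 8.70 (0.47 ± 0.05, adjusted p = 2.55e-04), so it was higher in the HDC-KO-labelled cells of both tissues. For all of these genes the tumor arrays of the genotypes were well apart.

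Stalk proteins and members with roles outside translation were read in the same tumor pools. Rplp2, an acidic protein of the stalk that recruits translation factors, measured 14.06 and 14.13 against 14.30 and 14.32 (0.21 ± 0.05, adjusted p = 0.00855). Its stalk partner Rplp0 measured 13.51 and 13.55 against 13.57 and 13.63 and did not pass (0.07 ± 0.06, adjusted p = 0.307). Rpl11, part of the 5S particle that restrains Mdm2 when ribosome assembly fails, measured 12.88 on both wild-type arrays against 13.21 on both others (0.33 ± 0.05, adjusted p = 7.87e-04). Rpsa rose by 0.22 ± 0.05 (adjusted p = 0.00748). Of 9 genes listed for Diamond-Blackfan anemia, 6 were tested, and all 6 rose in tumors with a median of 0.29. Over all tested members 82.5% rose with a median of 0.26, and 38.4% of all genes rose. Rps19 rose by 0.36 ± 0.05 (adjusted p = 5.98e-04). In marrow the same 6 genes of that list had negative differences with a median of -0.16. Rps19 alone passed (16.7%), where 12.5% of tested members and 10.9% of all genes fell.

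The 7 members that did not pass in tumors were Rps4l, Rpl39, Rps6, Rps20, Rplp0, Rps29 and Rpl27a. Rps20, which lies in the head of the small subunit, measured 14.08 and 14.04 against 14.13 and 14.05 (0.03 ± 0.06, adjusted p = 0.679). Rps29, another head protein, measured 14.82 and 14.85 against 14.93 and 14.88 (0.07 ± 0.05, adjusted p = 0.205). That is its brightest probe set. The other Rps29 probe sets rose by 0.21 ± 0.05 and 0.19 ± 0.05 (limma adjusted p = 0.00889 and 0.018 in the fit over probe sets). Rpl39, which lines the exit tunnel, measured 7.59 and 7.47 against 7.59 and 7.40 (-0.04 ± 0.09, adjusted p = 0.722). On the probe sets used, the genotypes overlapped for Rps20 and Rpl39 and lay close together for Rps29.

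**Figure D2:**
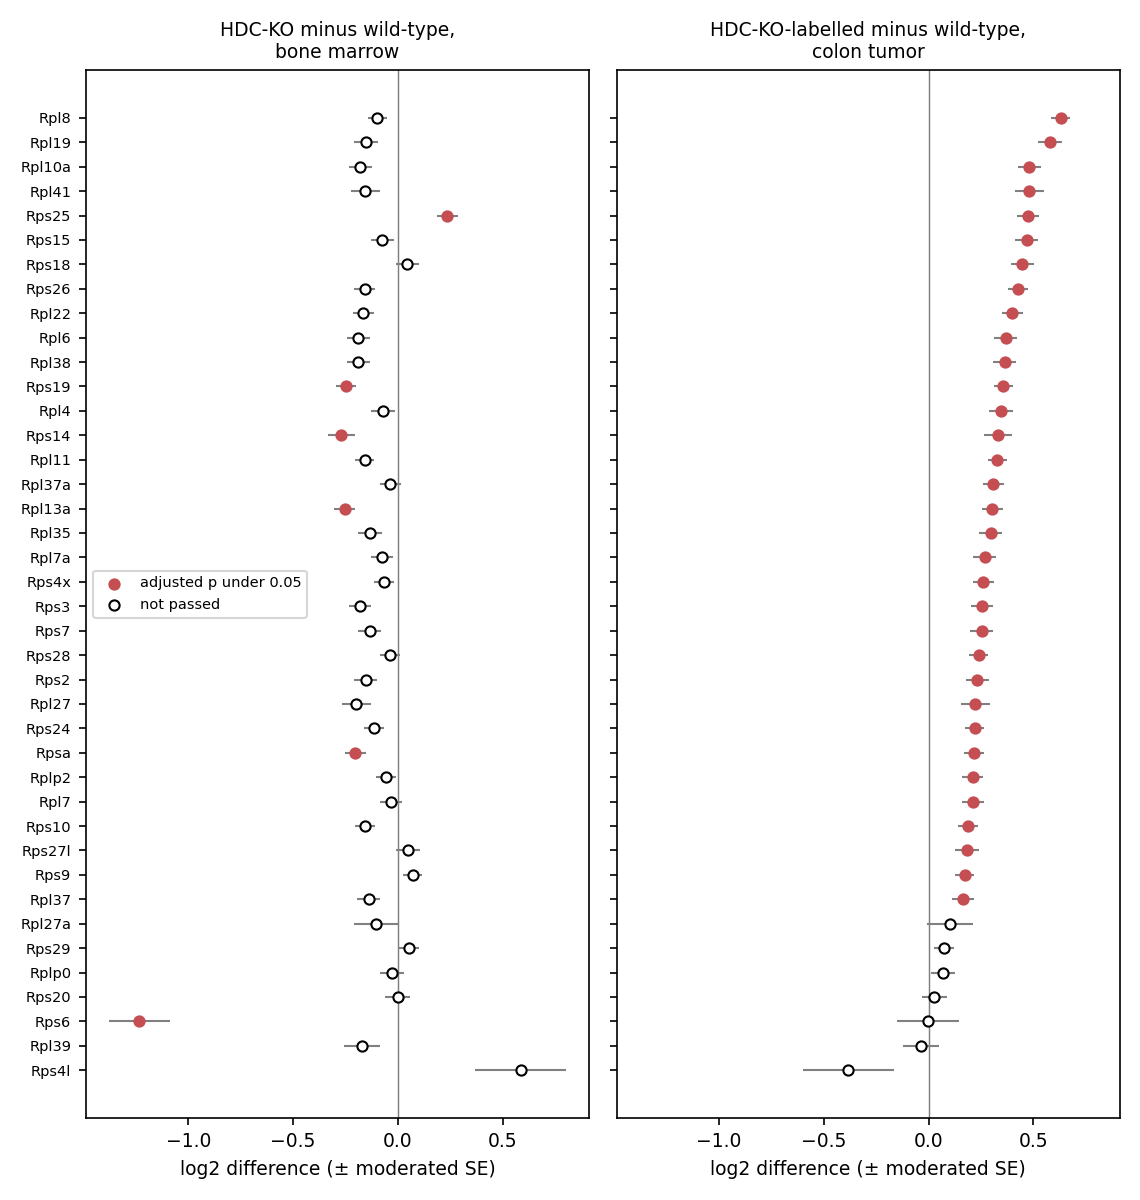
Log2 differences between HDC-KO and wild-type (horizontal axes, in log2 units) of the 40 tested ribosomal protein genes (vertical axis, ordered by the tumor difference), with bone marrow on the left and colon tumor on the right; bars are moderated standard errors and filled points passed an adjusted p of 0.05. In marrow 34 points lie below 0 and 6 passed, and in tumors 37 points lie above 0 and 33 passed; the tumor point of Rps4l compares values that are both under log2 5.

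The 4 comparisons share arrays, so their values stand side by side and none supports another. Between wild-type tumor and wild-type marrow the members moved little as a group. The median difference was 0.02, beside -0.034 over all genes, and 22 differences were positive. At an adjusted p under 0.05, 7 members rose and 3 fell, beside 27.0% and 29.4% of all genes. Without wild-type marrow array 1 or 2 or wild-type tumor array 2, 4 rose. By the 2-fold rule 2 were called lower (4.81% of all genes), Rps6 and Rps4l, and none higher (11.6%). Rps4l was under log2 5 in tumors, and its call is not read further than the bound given with its values. At an unadjusted p under 0.05, 8 were higher and 4 lower, beside 29.1% and 32.9% of all genes. Rps18, a small-subunit head protein, rose most, from 12.70 and 12.70 in wild-type marrow to 13.13 and 13.19 in wild-type tumors (0.46 ± 0.06, adjusted p = 8.00e-04). Rps25 (0.29), Rplp0 (0.28), Rpl41 (0.27), Rps27l (0.22), Rps9 (0.20) and Rps4x (0.14) also rose. Rps6 fell by 1.14 on the log2 scale (adjusted p = 0.00101) and Rps14 by 0.37 (adjusted p = 0.00363).

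Between the labelled HDC-KO tumor pool and HDC-KO marrow, almost all members were higher in tumor. The median was 0.40, or 1.32-fold, beside -0.024 over all genes. At an adjusted p under 0.05, 35 members rose (39.5% of all genes) and 1, Rps4l, fell (41.2%). By the 2-fold rule none was higher (21.1%) and Rps4l was lower (15.4%), with 35 higher and 1 lower at an unadjusted p under 0.05, beside 39.8% and 41.9% of all genes. Rpl41 was highest at 0.90 ± 0.07, followed by Rpl19 (0.88 ± 0.06), Rps18 (0.86 ± 0.06), Rpl10a (0.79 ± 0.05) and Rpl22 (0.65 ± 0.05). Large-subunit members had a median of 0.44 and small-subunit members one of 0.36.

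The genotype difference in tumors minus that in marrow was tested as an interaction. Its median over the members was 0.40, beside 0.048 over all genes, and 39 of 40 values were positive. At an adjusted p under 0.05, 32 members had a positive interaction (34.8% of all genes) and 1 a negative one (31.0%). Rps6 alone passed the 2-fold rule upward (16.8% of all genes) with 1.23 ± 0.21 (adjusted p = 0.00251; 0.96 after quantile normalization, under the 2-fold rule), and none passed it downward (11.7%). Next came Rpl19 (0.73), Rpl8 (0.73), Rpl10a (0.66), Rpl41 (0.64), Rps19 (0.60) and Rps14 (0.60). Rps6 reached its value through its marrow difference, as its tumor difference was -0.0019 ± 0.15. The negative call was Rps4l, and no size is given for it because both of its tumor values lie under log2 5. It was not called with values raised to log2 5. The smallest positive values were those of Rps29 (0.02), Rps20 (0.03) and Rplp0 (0.10).

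Paralogs of ribosomal proteins, which can replace the usual copy in some tissues, are described apart because the rule took in both copies. Rps4l, a paralog of Rps4x, measured 5.62 and 6.13 in wild-type marrow, 6.67 and 6.24 in HDC-KO marrow, 2.89 and 2.78 in wild-type tumors and 2.61 and 2.30 in the labelled HDC-KO tumor pool. Both tumor pools lay under log2 5, so Rps4l passed the filter through marrow alone. Against that floor it was at least 1.83-fold lower in wild-type tumors and at least 2.75-fold lower in the labelled HDC-KO pool than in marrow. The first bound lies under the 2-fold rule. Rps4x itself measured 13.29 and 13.29, 13.24 and 13.22, 13.43 and 13.44, and 13.67 and 13.72 in the same order, so its direction between tissues was the opposite. Probes of near-identical copies may read each other's messages, which these values cannot separate.

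Rps27l, a p53-induced paralog of Rps27, measured 10.97 ± 0.04 (SD, n = 2) in wild-type marrow, 10.98 and 11.05 in HDC-KO marrow, 11.15 and 11.21 in wild-type tumors and 11.33 and 11.40 in the labelled HDC-KO tumor pool. The marrow groups overlapped, and the tumor pools lay above them in turn (0.19 ± 0.06 between tumor pools, adjusted p = 0.0258). Rps27 itself was between 2.84 and 3.57 on all arrays. Rpl39l, a paralog of Rpl39 known from male germ cells, measured 4.41 and 4.25 in wild-type marrow and between 3.19 and 3.71 elsewhere. Rpl3l, the striated muscle paralog of Rpl3, was between 2.19 and 2.54. Rpl12 was between 2.85 and 3.30 apart from 5.48 and 4.56 in the labelled HDC-KO tumor pool. Rps16 was between 1.79 and 2.28 and Rpl14 between 3.81 and 4.74. Rps27, Rpl12, Rps16 and Rpl14 each had 1 single-gene probe set, and whether it reads their messages was not tested. Their low values therefore do not show that these genes are off, nor that Rps27l takes the place of Rps27.

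Rps9, a small-subunit protein involved in decoding accuracy, was the member whose probe sets differed most in each comparison, and these were examined after the values had been seen. The probe set used, of the _s_at type, had means of 12.91, 12.98, 13.12 and 13.29 in wild-type marrow, HDC-KO marrow, wild-type tumors and the labelled HDC-KO tumor pool. Its _x_at probe set had means of 14.48 ± 0.18, 9.57 ± 0.41, 10.28 ± 0.03 and 9.87 ± 0.01, so that wild-type marrow stood far above the other 3 groups. Its marrow difference was -4.91 ± 0.19 (adjusted p = 2.52e-05 in the fit over probe sets), against 0.07 ± 0.05 for the probe set used. Its _at probe set measured 8.16, 7.24, 8.36 and 9.17, with -0.91 ± 0.13 in marrow (adjusted p = 0.00464) and 0.81 ± 0.13 in tumors (adjusted p = 0.00142). The suffix x marks probe sets whose probes may match other transcripts. Rps9 was the single member with probe sets called in opposite directions, and that was between wild-type tumor and marrow. Its level is thus uncertain on these arrays.

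**Figure D3:**
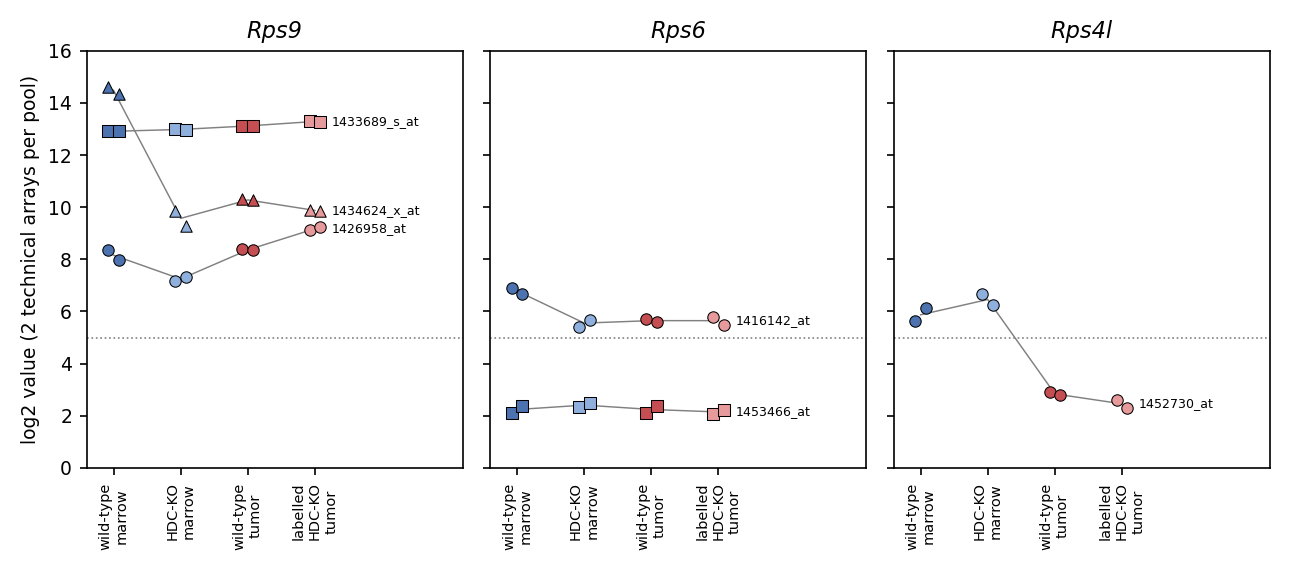
Log2 values (vertical axis) of every single-gene probe set of Rps9, Rps6 and Rps4l in the 4 groups (horizontal axis), with 1 point per technical array, lines joining group means and a dotted line at log2 5. The _x_at probe set of Rps9 drops from a mean of 14.48 in wild-type marrow to 9.57 in HDC-KO marrow, Rps6 is highest in wild-type marrow, and Rps4l lies under log2 5 in both tumor pools.

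Probe sets that are annotated to several genes, including a ribosomal protein symbol of the same form, were read as a second view. Of these, 93 were tested. In marrow 83 had negative and 10 positive differences with a median of -0.10. In tumors 89 had positive and 4 negative differences with a median of 0.29. Such probe sets name no gene and may read the same messages as the members do.

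Responses were set beside the start-site sequences as a description. The 19 tested members with a run of at least 7 pyrimidines at a listed start had a median tumor difference of 0.30 and 16 of them rose. The 15 without one had a median of 0.25 and 14 rose. Over all tested members 82.5% rose, beside 38.4% of all genes. The medians in marrow were -0.13 and -0.15. For the other 6 tested members no start was listed or used. This split is by a run anywhere in the window and does not separate TOP from other messages.

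Genes that work with the ribosome in translation were read from a companion list. Of 18 tested genes for translation factors and other TOP messages, 17 rose in the labelled HDC-KO tumor pool (94.4%) and none fell, with a median of 0.29, beside 38.4% and 34.4% of all genes. Eef2, the elongation factor that translocates the ribosome, rose by 1.02 ± 0.06, or 2.02-fold, and Eif4a2, a helicase of the cap-binding complex, by 0.55. In HDC-KO marrow 4 fell (22.2%) and 1 rose (5.56%), beside 10.9% and 10.3% of all genes, with a median of -0.11. Eef2 had -0.25, Eif3k -0.33 and Eif4a2 0.34. Rps3a1, Fau and Rpl22l1, ribosomal protein genes outside the naming rule, rose in tumors by 0.28, 0.22 and 0.31, while Rpl7l1 fell by 0.31.

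Ribosome assembly genes included larger differences. Of 44 tested biogenesis genes, 31 rose (70.5%) and 6 fell (13.6%) in the labelled HDC-KO tumor pool, beside 38.4% and 34.4% of all genes. The median was 0.52. By the 2-fold rule 8 rose and 1 fell, beside 15.5% and 10.5% of all genes. Some that rose, Tsr1, Utp20, Tcof1, Nob1 and Nop2 among them, had a group mean of at least log2 5 only in that pool. The filter favours genes that are high there, so these counts are a description only. Tsr1, which checks late small-subunit precursors, was under log2 5 in wild-type tumors and at least 6.76-fold higher in the labelled HDC-KO pool. Pno1, a partner in the same step, rose by 1.29. Mphosph10, of the early small-subunit processome, had -1.25. In marrow 6 rose (13.6%) and 4 fell (9.09%), near the 10.3% and 10.9% of all genes, with a median of 0.06. Of 10 RNA polymerase I genes, 6 rose (60.0%) and 2 fell (20.0%) in tumors, beside 38.4% and 34.4% of all genes. Polr1c rose by 1.13 and Taf1d by 1.11. Polr1a, the catalytic subunit, was under log2 5 in the labelled HDC-KO pool and at least 2.02-fold lower there.

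Mitochondrial ribosomal protein genes, which belong to a separate ribosome, were split. Of 71 tested, 32 rose (45.1%) and 18 fell (25.4%) in tumors, beside 38.4% and 34.4% of all genes, with a median of 0.19. In marrow 3 rose (4.23%) and 6 fell (8.45%), below the 10.3% and 10.9% of all genes, with a median of -0.03. Mrps6, under log2 5 in wild-type tumors, was at least 4.53-fold higher in the labelled HDC-KO pool, and Mrpl12 rose by 1.54, while Mrpl45 had -1.72. Of 9 regulators tested, 3 rose (33.3%) and 2 fell (22.2%) in tumors, shares below those of all genes. Those that rose were Larp1 (0.42), the kinase Mtor (0.23) and its activator Rheb (0.23), and those that fell were Mdm2 (-0.36) and Max (-0.22).

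**Figure D4:**
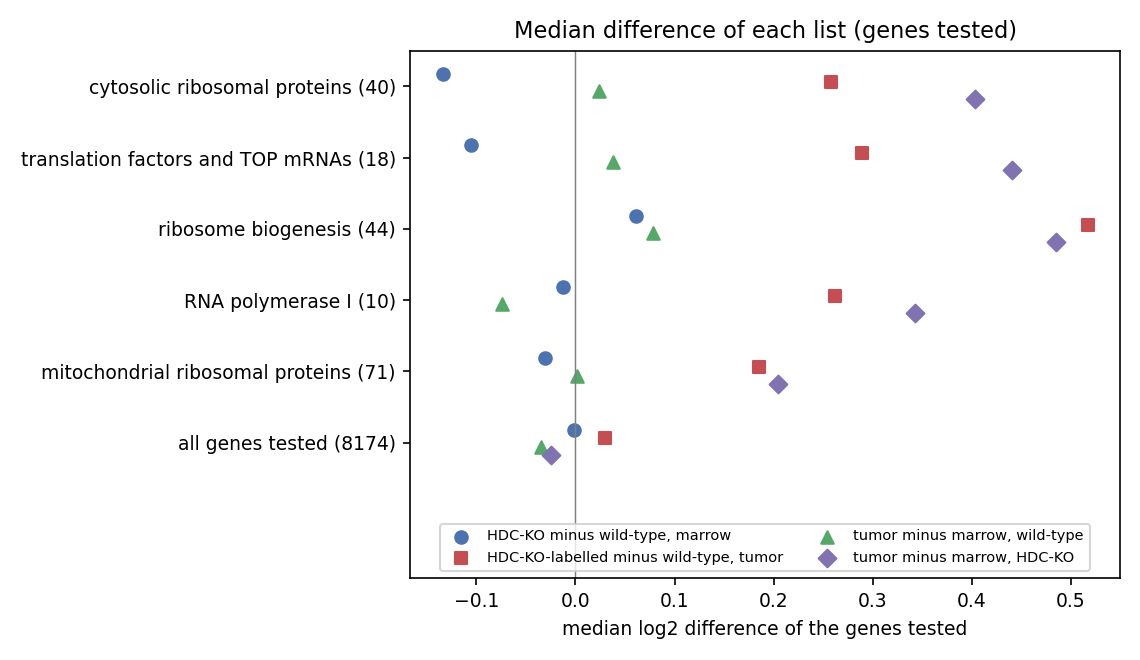
Median log2 difference (horizontal axis, in log2 units) over the tested genes of each list (vertical axis, number tested in brackets), with 1 symbol per comparison. The ribosomal protein genes and translation factors have medians of -0.13 and -0.11 in marrow and 0.26 and 0.29 in tumors, while all 8174 genes lie between -0.034 and 0.030.

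Markers of other cell types differed between the same samples. In tumors 38.4% of all genes rose and 34.4% fell at an adjusted p under 0.05, and 15.5% rose by the 2-fold rule. In the labelled HDC-KO tumor pool, 14 of 15 intestinal epithelial markers were over 2-fold higher than in wild-type tumors, and their summed linear level went from 5548 to 5673 up to 29660 to 31690. In marrow that sum was 221 to 269 in wild-type and 242 to 259 in HDC-KO cells. Macrophage markers rose in 9 of 9 cases, with sums of 15650 to 15940 and 32700 to 34220. All 13 tested cell cycle markers fell, from 28230 to 28500 down to 7184 to 7503, as did all 5 primary granule markers, from 5123 to 5145 down to 615.5 to 639.4. Mature neutrophil markers summed to 110000 to 112400 and 104900 to 106000. B and plasma cell markers went from 14440 to 14950 up to 27030 to 27070, while all 7 stromal and endothelial markers were under log2 5 on every array. Both erythroid markers tested rose over 2-fold, with sums of 151.0 to 154.7 and 763.6 to 805.8. Among the 5 markers of T and NK cells that were tested, 3 were higher and 1 lower, with sums of 4381 to 4605 and 3311 to 3334. Of 4 basophil and mast cell markers 2 rose, with sums of 35.64 to 36.82 and 41.33 to 43.8. In both tumor pools 0 of these 4 markers had a mean of at least log2 5. Their rise is therefore not read further. The part of these cells in the ribosomal protein differences was not tested.

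In marrow, 10.3% of all genes rose and 10.9% fell at an adjusted p under 0.05. The 4 basophil and mast cell markers tested all fell, with sums of 1123 to 1259 in wild-type and 248.6 to 296.0 in HDC-KO cells. Primary granule markers went from 26110 to 26730 down to 20330 to 20400, with 4 of 5 fallen. Of 13 cell cycle markers 1 fell (7.69%), a share below that of all genes. B and plasma cell markers went from 2553 to 2766 down to 249.2 to 257.0, yet of 4 tested 2 rose and 2 fell. T and NK cell markers went from 768.4 to 1058 up to 6026 to 6124, and of 5 tested 2 rose and 1 fell. These sums weigh the brightest genes most and do not speak for each marker. Macrophage markers rose in 5 and fell in 1 of 9 cases, with sums of 2719 to 2812 and 3497 to 3513. Erythroid markers summed to 46.67 to 51.01 and 13.75 to 21.85, and 1 of 2 fell. Their part in the marrow differences was not tested either.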

How the data were processed

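Affymetrix arrays were hybridised with labelled RNA of 4 groups, 2 technical arrays each. The deposited table holds GCRMA values on the log2 scale for 45101 probe sets, per the submitters' processing notes. The version of GCRMA, the genome build of the annotation and any scan batch were not given in the sources used here. Reading the values as log2 rests on their range, with array maxima of 15.13 to 15.34. Of the probe sets, 34958 carried 1 gene symbol, 932 several and 9211 none. Gene symbols came from the platform annotation; matching to RefSeq by Entrez ID changed 0 symbols, and 204 probe sets had no match.

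Genes that reached log2 5 on 2 or more arrays were kept, which left 8174. A single model over all 8 arrays, with 4 residual and 2.14 prior degrees of freedom and no block, was fitted by lmFit and eBayes of limma 3.58.1 (R 4.3.3). Calls used a Benjamini-Hochberg adjusted p under 0.05 alone, or with a log2 difference of at least 1 (the 2-fold rule). Standard errors are moderated. The script was tested on simulated data. Summaries used Python 3.11.15 and pandas 2.3.3. Members and companion lists were chosen with earlier results of these data known. Genes named are the targeted gene, stalk, 5S, S6 and paralog members, the 5 largest and 5 smallest differences per comparison, and up to 3 called genes of each companion list per comparison; others were named after their values were seen. Array number limits the precision. Same-numbered arrays did not deviate together (correlations of -0.0147 to 0.0575), so the numbers pair nothing.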

Additional observations from a re-analysis of the deposited data

Results flagged for a closer look

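The Rps6 genotype difference was unlike in the tissues by a test of that difference: the tumor difference minus the marrow difference was 1.23 ± 0.21 on the log2 scale (limma adjusted p = 0.00251). Rps6 was 2.35-fold lower in HDC-KO marrow and -0.0019 ± 0.15 apart between the tumor pools. The median of the ribosomal protein genes lay lower on every HDC-KO array in marrow and higher on every labelled HDC-KO array in tumors than on the matching wild-type arrays. The median of the 40 interaction values was 0.40, and the difference between the medians was not tested.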

How the results depend on the processing

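With 1 RNA sample per group on 2 technical arrays, no spread between mice was measured, and counts of calls in marrow moved with the settings more than those in tumors. The shares of all genes called under the other settings are not given. A changed count is therefore not read as a result about the members. The marrow count of members that fell (5) was 2 without a filter, 12 with a filter at log2 7, 13 with values raised to log2 5, 3 after median centring, 9 with the mean of a gene's probe sets and 21 with a trended, robust variance. The member that rose was lost (0) without a filter and with the trended variance. The marrow median was -0.10 with quantile normalization, -0.080 with centring, -0.10 with the mean of probe sets and -0.10 on probe sets of several genes. In tumors the 2-fold count was 1 without a filter, and the median was 0.24 with quantile normalization, 0.20 with centring, 0.33 without _x_at and _s_at probe sets and 0.29 on probe sets of several genes. Median centring moved the median of all genes between HDC-KO tumor and marrow from -0.024 to -0.15.

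Between wild-type tissues the 2-fold count (2) was 0 with the filter at log2 7 and 1 with raised values. The count that rose (7) was 3 without a filter, 4 with the mean of probe sets and 14 with the trended variance, which also gave 5 that fell. The median turned to -0.0011 with the mean of probe sets, -0.00058 without _x_at and _s_at probe sets and -0.0067 on probe sets of several genes, so it has no direction. Between HDC-KO tissues the 2-fold count was 2 without a filter, 0 with the filter at log2 7, which also gave 0 that fell, and 2 without _x_at and _s_at probe sets. The median was 0.42, 0.37, 0.28 and 0.48 with the filter at log2 7, quantile normalization, centring and without those probe sets. For the interaction the 2-fold count was 2 without a filter, 0 with the filter at log2 7 or quantile normalization, and 2 with centring or without those probe sets. The negative count was 0 with the filter at log2 7 or raised values. The median was 0.35 with quantile normalization, 0.28 with centring and 0.43 without those probe sets. Rps9 turned to -1.92 in marrow and -1.27 between wild-type tissues as the mean of its probe sets. The cause was not tested, except that Rps4l and Rps6 are not tested at log2 7.

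Leaving out 1 array in turn gave 1 to 6 members that fell and 0 to 1 that rose in marrow, with a median of -0.15 to -0.10, where 1 fell when any 1 of the 4 marrow arrays was left out. In tumors it gave 30 to 33 that rose and a median of 0.24 to 0.28. Between wild-type tissues it gave 4 to 7 that rose, 3 to 4 that fell and a median of 0.016 to 0.046. Between HDC-KO tissues it gave 33 to 35 that rose and a median of 0.40 to 0.42. For the interaction it gave 1 to 2 by the 2-fold rule, 29 to 32 positive, 0 to 1 negative and a median of 0.35 to 0.42. A replicate block on the array number gave 4 members that fell in marrow and 32 that rose in tumors, 34 between HDC-KO tissues and 32 for the interaction; no count moved by over 1.5 times. The fit on only the groups compared could not be made for the interaction.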
